A study of Homo sapiens with 6 samples.

Results

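Fatty acid synthesis and desaturation was followed through 10 genes, SCD, FASN, ACACA, ACLY, ELOVL5, ELOVL6, FADS1, FADS2, SREBF1 and ACSL3, chosen by symbol from a table of 58735 genes. Each symbol matched 1 row, and all 10 passed the filter of at least 1 FPKM on average. FPKM are fragments per kilobase of joined exons and per 1000000 reads of a scaling total for the library. RNA came from TPC1 cells, a line established from papillary thyroid cancer and grown in DMEM with serum. In 3 libraries the cells had been transfected with si-circ_0000839, an siRNA against the circular RNA hsa_circ_0000839, and in the other 3 with negative-control (NC) siRNAs, in both groups for 60 h. All 6 libraries are from this 1 line, both groups were transfected, and the labels name no separate cultures, so each p-value speaks for the spread among these 6 libraries, which may be technical. The circular RNA has no row of its own in a table of genes, and its depletion was not checked here.

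Cells build fatty acids from cytosolic acetyl-CoA, which ACLY makes from citrate. ACACA turns acetyl-CoA into malonyl-CoA, and FASN joins malonyl units into palmitate. Enzymes of the ELOVL family lengthen the chain, SCD places a double bond in saturated chains to give oleate and palmitoleate, and FADS2 and FADS1 desaturate polyunsaturated chains. ACSL3 activates fatty acids as CoA esters, and SREBF1 encodes SREBP-1, a membrane-bound transcription factor whose released form drives most of these genes. Lipogenesis of this kind is often high in cancer cells, and the saturated to monounsaturated balance of membranes depends on SCD.

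SREBP-1 is known to act at such promoters together with NF-Y, which binds CCAAT boxes, so the sequence ahead of SCD, which fell, is shown beside that of ACLY, the most abundant of the 10 and not called. Both stretches come from the RefSeq promoter table (GRCh38.p14), read 5′ to 3′ on the gene's strand, with bases in annotated exons left out and CCAAT, or its reverse complement ATTGG, in capitals. The SCD stretch, chr10:100346983-100347123, plus strand, ends at the base before the annotated gene start. The ACLY stretch, chr17:41919023-41919272, minus strand, ends at the base before the RefSeq start and lies inside the gene's longest annotated span.
SCD: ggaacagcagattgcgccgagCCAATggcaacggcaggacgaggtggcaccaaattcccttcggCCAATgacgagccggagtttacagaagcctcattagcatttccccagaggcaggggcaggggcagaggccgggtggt
ACLY: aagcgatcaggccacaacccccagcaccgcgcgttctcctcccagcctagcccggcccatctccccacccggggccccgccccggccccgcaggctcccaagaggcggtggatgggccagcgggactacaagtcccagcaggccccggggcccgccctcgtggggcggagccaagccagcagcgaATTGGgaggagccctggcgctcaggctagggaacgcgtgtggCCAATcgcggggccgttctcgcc
Each of these stretches held 2 such matches. Of the 10 genes, 9, all but FASN, had an entry in that table, with 13 promoters among them. Within 300 bases around the start, on either strand, CCAAT was found in 8 of the 13 promoters, against 34.6% of all 35116 promoters of that length. GGGCGG, the GC box bound by Sp1, was found in 10 of 13 against 45.0%, and the E-box CANNTG in 5 of 13 against 68.7%, while TCACNCCAC, a form of the sterol response element, was found in 0 of 13 against 1.13%. Promoters of 1 gene can overlap, as the 2 of ACLY do, so the 13 are not independent. By gene, GGGCGG was found in 8 of 9, CANNTG in 5, TCACNCCAC in 0 and CCAAT in 6. CCAAT was found for SCD, ACACA, ACLY, ELOVL5, FADS2 and ACSL3, and not for FADS1, ELOVL6 or SREBF1. FADS1 lay lower after si-circ_0000839, as SCD did, and ACACA lay higher. A CANNTG match can share letters with a CCAAT match. These matches describe letters in a window and do not show binding.

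The recovered depth was 18399558 to 19334633 reads per library, and mitochondrial genes took 1.33% to 1.60% of reads. Across 10674 tested genes limma called 41 at a Benjamini-Hochberg adjusted p under 0.05, with 14 of them (0.131%) higher after si-circ_0000839 and 27 (0.253%) lower. A pair of libraries stood apart from the others of their group: for genes of the top GC quintile, si-circ_0000839 replicate 1 lay 0.106 and NC replicate 2 0.084 above the gene means on the log2 scale, where the other 4 lay at -0.0736 to -0.00946. Of the 10 genes FASN, SREBF1 and FADS2 belong to that quintile. ELOVL6 and ACSL3 belong to the lowest GC quintile. There si-circ_0000839 replicate 1 lay at -0.141, NC replicate 2 at -0.0506 and the other 4 at -0.00382 to 0.0784. PAX8, a thyroid lineage factor, was at 91.2 to 102 FPKM in the 6 libraries and FOXE1, another, at 10.2 to 12.6, while NKX2-1, TSHR and SLC5A5, also thyroid markers, had no reads. The adipocyte markers ADIPOQ and LEP had no reads either, and the 6 adipocyte markers together stayed at or under 0.0566 FPKM in every library.

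SCD fell after si-circ_0000839 and was the only one of the 10 genes to pass the test. The 3 enzymes that make palmitate, ACLY, ACACA and FASN, each lay higher in all si-circ_0000839 libraries than in all NC libraries, by 1.05-fold to 1.20-fold, without passing the test. For ACLY this was nearly a tie: the lowest si-circ_0000839 value was 69.21 FPKM and the highest NC value 69.20. It is still counted below as not overlapping. The polyunsaturated desaturase genes FADS1 and FADS2 each lay lower, at 0.878 and 0.842 times the NC mean, also without passing. ELOVL5, ELOVL6, ACSL3 and SREBF1 overlapped between the groups. Thus 1 of 10 genes passed, where 0.384% of all tested genes did and in 6 of 10, 3 higher and 3 lower, the groups did not overlap, where 18.1% of all tested genes did not (10.6% higher and 7.55% lower). At an unadjusted p under 0.05 there were 3 of the 10, against 12.6%. The 10 genes were chosen around SCD with earlier results of these data known, so these counts describe them and are no test of the pathway. Their median log2 change was -0.03, against 0.0057 over all tested genes.

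**Figure D1:**
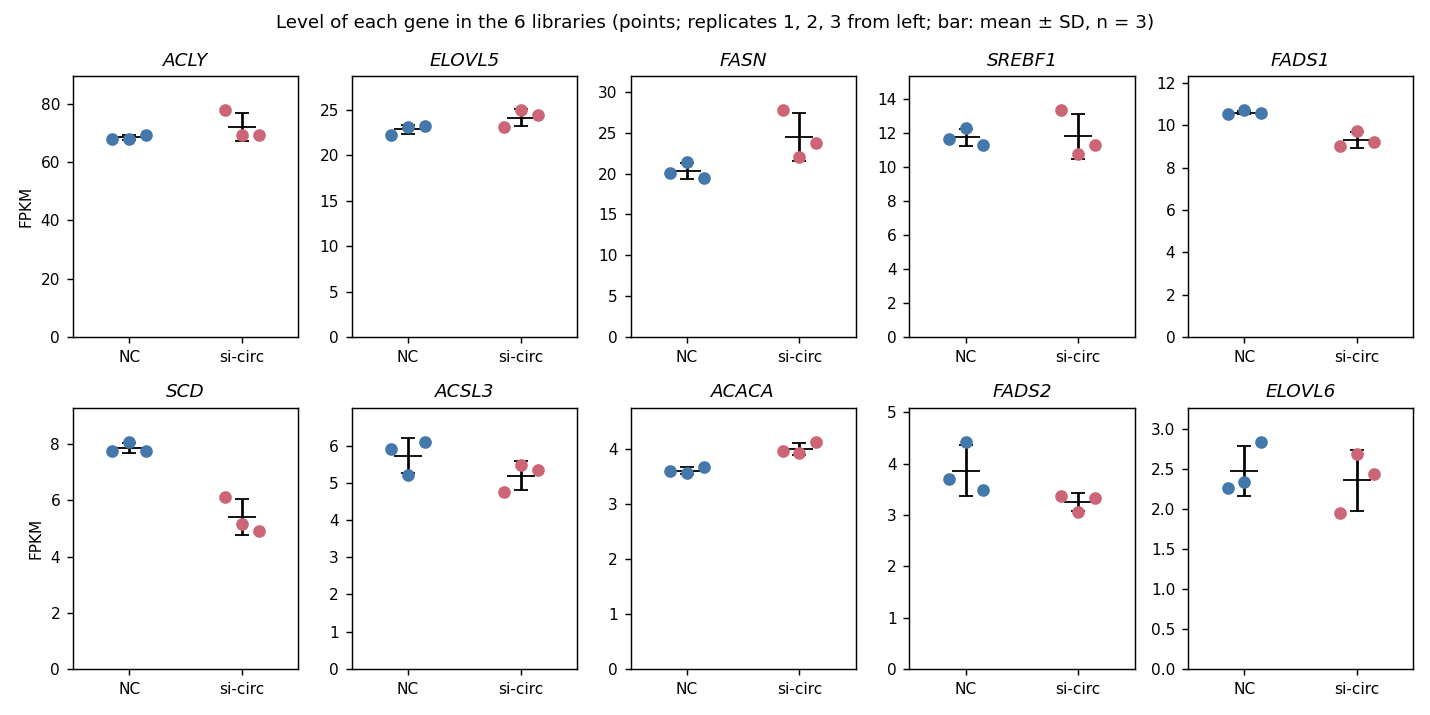
FPKM (vertical axes, each from 0) of the 10 genes in the 3 NC and the 3 si-circ_0000839 libraries, ordered by mean level; points are libraries and bars the mean ± SD. SCD lies at 4.90 to 6.13 after si-circ_0000839 and 7.75 to 8.07 in NC, while ELOVL6, ACSL3, ELOVL5 and SREBF1 overlap between the groups.

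By level per length, ACLY was highest with a mean of 70.2 FPKM over the 6 libraries, followed by ELOVL5 at 23.5, FASN at 22.4, SREBF1 at 11.8, FADS1 at 9.95, SCD at 6.63, ACSL3 at 5.46, ACACA at 3.80, FADS2 at 3.56 and ELOVL6 at 2.41. Among neighbours in this order, ELOVL5 and FASN, SCD and ACSL3, and ACACA and FADS2 had ranges over the 6 libraries that overlapped; the other neighbours did not. Among all tested genes by mean level, ACLY stood at percentile 93.6, SCD at 50.7 and ELOVL6 at 22.2. Lengths are those of all annotated exons of a gene joined, equal to the joined exons of GENCODE release 29 for each of the 10, so a gene with long exons that these cells do not use has an FPKM that is too low.

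SCD (ENSG00000099194, chromosome 10, 100347124 to 100364834, plus strand, GRCh38) encodes the desaturase that makes oleate. It was at 7.75, 8.07 and 7.78 FPKM in NC replicates 1, 2 and 3 and at 6.13, 5.17 and 4.90 in si-circ_0000839 replicates 1, 2 and 3. Every si-circ_0000839 library lay below every NC library, and the NC libraries lay close together. The means were 5.40 ± 0.647 (SD, n = 3) and 7.87 ± 0.180, 1.46-fold lower after si-circ_0000839. In log2(FPKM + 1), a scale that shrinks changes of genes at low levels, the change was -0.47 (SE 0.08, 95% interval -0.66 to -0.29, limma adjusted p = 0.0473). The value rested on 484 to 603 reads per library after si-circ_0000839 and 787 to 806 in NC. In such bulk libraries fewer cells with the RNA and less RNA per cell cannot be told apart. The call was close to the threshold: it was lost without si-circ_0000839 replicate 2 (adjusted p = 0.124) or 3 (0.172) and without NC replicate 1 (0.121), 2 (0.0863) or 3 (0.145), and held without si-circ_0000839 replicate 1 (0.0234). It was also lost after rescaling to TPM (adjusted p = 0.0589), with a constant prior variance (0.0647), with a replicate block (0.0879) and with no filter on low values (0.310). In the 6 fits that each left out a library the log2 change stayed between -0.55 and -0.42. Without both libraries that stood apart it was -0.54 (limma adjusted p = 0.0470). Of 5 fibroblast markers, LUM was also lower in every si-circ_0000839 library, at 13.6 to 18.4 against 19.7 to 24.7 FPKM (adjusted p = 0.108), so that the summed level of the 5 was 14.2 to 18.9 against 20.0 to 25.1. LUM passed at a minimum of 5 FPKM (adjusted p = 0.0372) and with voom on recovered reads (0.0320). COL1A1, a defining marker, went the other way at a low level, at 0.502 to 0.622 FPKM after si-circ_0000839 against 0.314 to 0.428 in NC, below the filter for the test, and DCN stayed at or under 0.00428 FPKM in every library.

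**Figure D2:**
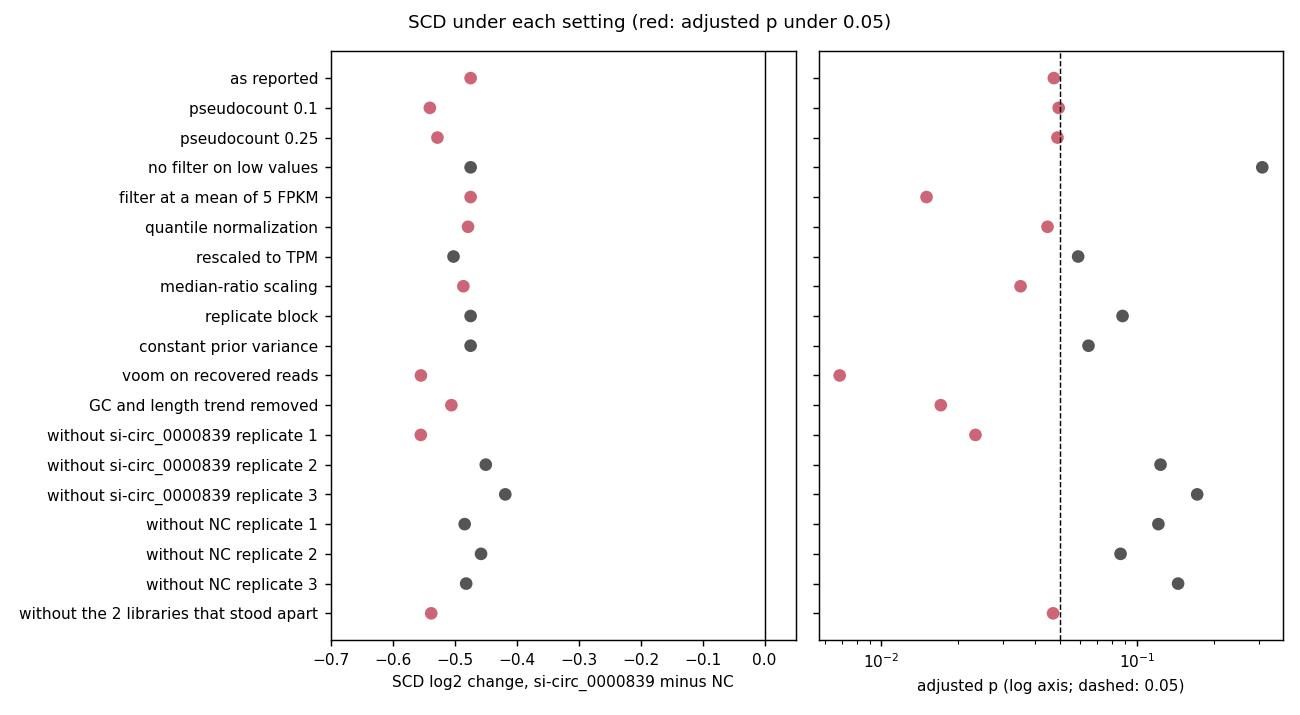
Log2 change of SCD (left panel) and its adjusted p on a log axis (right panel) as reported and under each alternative setting, with the dashed line at 0.05. All changes lie between -0.55 and -0.42, while the adjusted p runs from 0.00687 to 0.310.

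SCD5, the other human stearoyl-CoA desaturase gene, had means of 1.65 ± 0.385 (NC) and 1.76 ± 0.257 FPKM (si-circ_0000839; SD, n = 3 each; limma adjusted p = 0.871). Its groups overlapped, and its log2 change of 0.06 turned to -0.05 without NC replicate 1 and to -0.0013 without si-circ_0000839 replicate 1. FADS3, a paralog in the same cluster, was at 23.0 ± 1.32 in NC and 23.4 ± 2.20 after si-circ_0000839 and overlapped too (adjusted p = 0.954). Its log2 change of 0.02 turned to -0.06 without si-circ_0000839 replicate 1, to -0.02 without NC replicate 3 and to -0.03 once GC and length trends were removed.

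FADS1 and FADS2 encode the delta-5 and delta-6 desaturases of the polyunsaturated pathway. FADS1 (chromosome 11, 61799625 to 61829318, minus strand) was at 10.5, 10.7 and 10.6 FPKM in NC and at 9.00, 9.74 and 9.18 after si-circ_0000839, in the order of replicates 1 to 3. All NC libraries lay above all si-circ_0000839 libraries, with means of 10.6 ± 0.0879 and 9.31 ± 0.382 (SD, n = 3). The log2 change was -0.17 (SE 0.07, 95% interval -0.32 to -0.02, limma adjusted p = 0.332). FADS2 (chromosome 11, 61792980 to 61867354, plus strand) was at 3.69, 4.42 and 3.48 FPKM in NC and at 3.37, 3.05 and 3.34 after si-circ_0000839. The groups did not overlap, though NC replicate 3 lay only just above the highest si-circ_0000839 library. The log2 change of FADS2 was -0.19 (SE 0.09, 95% interval -0.39 to 0.01, limma adjusted p = 0.419), and -0.11 without NC replicate 2. The genes lie across each other on opposite strands and share 490 exon bases, 4.79% of those of FADS1 and 4.44% of those of FADS2, and as the strand setting is not given in the sources used here, reads there cannot be assigned with certainty. FADS2 also shares 49 exon bases with FEN1, which was at a mean of 70.9 FPKM.

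Within a library, the FADS1 to FADS2 ratio of FPKM was 2.85, 2.42 and 3.04 in NC and 2.67, 3.19 and 2.75 after si-circ_0000839, and the groups overlapped (exact permutation test, two-sided p = 0.700, adjusted over 3 ratios 0.700). The SCD to FASN ratio sets the desaturase against the synthase free of each library's scaling, though not of its GC trend. FASN belongs to the top GC quintile and SCD to the middle one. With GC and length trends removed, the log2 difference of this ratio, there taken on FPKM + 1, was -0.71. The ratio was 0.385, 0.376 and 0.399 in NC and 0.221, 0.235 and 0.207 after si-circ_0000839. All NC libraries lay well above all si-circ_0000839 libraries, by 0.81 on the log2 scale, with exact permutation p = 0.1, two-sided, the smallest that 3 against 3 allows (adjusted 0.15). The SCD to ACACA ratio was 2.16, 2.28 and 2.12 in NC and 1.55, 1.32 and 1.19 after si-circ_0000839, also without overlap (exact permutation p = 0.1, adjusted 0.15). Both ratios hold SCD, so they are not independent of its fall or of each other. As SCD lay lower and FASN and ACACA lay higher in every si-circ_0000839 library, neither ratio could overlap between the groups. The exact permutation p = 0.1 was thus fixed by the levels of these genes and adds no support to them.

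**Figure D3:**
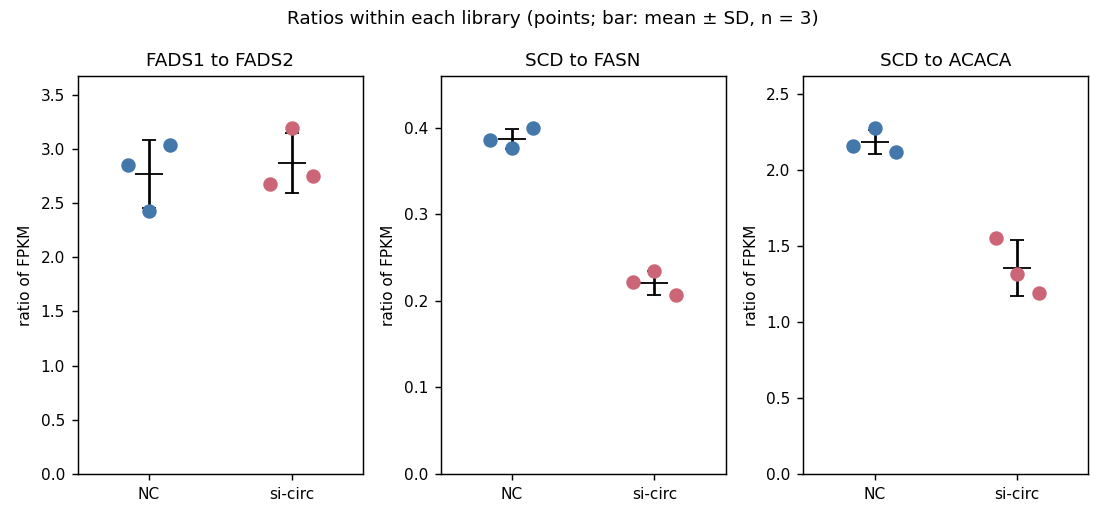
Ratio of FPKM of a pair of genes within each library (vertical axes from 0) for FADS1 to FADS2, SCD to FASN and SCD to ACACA; points are libraries, bars the mean ± SD of 3. The FADS1 to FADS2 ratio overlaps between the groups, and the SCD to FASN ratio lies at 0.376 to 0.399 in NC and 0.207 to 0.235 after si-circ_0000839.

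FASN (ENSG00000169710, chromosome 17, 82078333 to 82098332, minus strand), the synthase, was at 20.1, 21.4 and 19.5 FPKM in NC and at 27.7, 22.0 and 23.7 after si-circ_0000839. The groups did not overlap, but si-circ_0000839 replicate 2 lay just above NC replicate 2, and the highest value came from si-circ_0000839 replicate 1, the library with the highest level in GC-rich genes. The means were 24.5 ± 2.91 and 20.3 ± 1.003 (SD, n = 3), with a log2 change of 0.25 (SE 0.09, 95% interval 0.06 to 0.45, limma adjusted p = 0.282). Without si-circ_0000839 replicate 1 the log2 change was 0.16 (adjusted p = 0.499), and with trends on GC content and length removed from each library it was 0.21 (adjusted p = 0.0537).

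ACACA (chromosome 17, 37084988 to 37406818, minus strand), the acetyl-CoA carboxylase of the cytosol, was at 3.59, 3.55 and 3.67 FPKM in NC and at 3.95, 3.92 and 4.11 after si-circ_0000839. Libraries of each group lay close together and the groups did not overlap. The log2 change was 0.12 (SE 0.07, 95% interval -0.04 to 0.28, limma adjusted p = 0.545). Its mitochondrial counterpart ACACB was at 3.37 ± 0.0213 FPKM in NC against 3.28 ± 0.273 after si-circ_0000839 (SD, n = 3; limma adjusted p = 0.900), with overlapping groups. ACLY (chromosome 17, 41866908 to 41930542, minus strand) was at 68.0, 67.9 and 69.2 FPKM in NC and at 77.6, 69.2 and 69.3 after si-circ_0000839. Its groups barely separated, as the lowest si-circ_0000839 value rounds to the same number as the highest NC value, and only si-circ_0000839 replicate 1 stood clearly above. The ACLY log2 change was 0.07 (SE 0.07, 95% interval -0.08 to 0.23, limma adjusted p = 0.720), falling to 0.019 without si-circ_0000839 replicate 1 and to 0.014 without both libraries that stood apart.

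ELOVL5 (chromosome 6, 53267398 to 53349179, minus strand), which elongates polyunsaturated chains, was at 22.3, 23.1 and 23.2 FPKM in NC and at 23.1, 24.9 and 24.4 after si-circ_0000839. The groups overlapped (log2 change 0.08, 95% interval -0.07 to 0.22, limma adjusted p = 0.690). ELOVL6 (chromosome 4, 110045846 to 110199199, minus strand), which elongates palmitate to stearate, the main substrate of SCD, was at 2.25, 2.33 and 2.83 FPKM in NC and at 1.94, 2.68 and 2.44 after si-circ_0000839. It was the least abundant of the 10, with 260 to 393 reads per library, and its groups overlapped widely. The ELOVL6 log2 change was -0.05 (95% interval -0.28 to 0.18, limma adjusted p = 0.881), and it turned to 0.04 without si-circ_0000839 replicate 1 and to 0.02 without NC replicate 3.

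ACSL3 (chromosome 2, 222860934 to 222944639, plus strand), the acyl-CoA synthetase of the endoplasmic reticulum and lipid droplets, was at 5.89, 5.21 and 6.09 FPKM in NC and at 4.75, 5.47 and 5.34 after si-circ_0000839. NC replicate 2 lay below a pair of si-circ_0000839 libraries. The log2 change was -0.12 (95% interval -0.31 to 0.06, limma adjusted p = 0.598), or -0.18 without NC replicate 2 and -0.07 without si-circ_0000839 replicate 1. SREBF1 (chromosome 17, 17810399 to 17837002, minus strand) was at 11.7, 12.3 and 11.3 FPKM in NC and at 13.3, 10.8 and 11.3 after si-circ_0000839, with means of 11.8 ± 0.500 and 11.8 ± 1.34 (SD, n = 3). Its 95% interval ran from -0.19 to 0.19 around a log2 change of 0.00085 (limma adjusted p = 0.997), so that on this scale a change beyond 1.14-fold either way lay outside it. That sign turned under several settings, to -0.08 without si-circ_0000839 replicate 1 and to -0.01 after median-ratio scaling. SREBF1 shares 556 exon bases, 6.92% of its own, with RAI1 on the other strand, at a mean of 7.16 FPKM, and the table holds gene totals that do not separate the SREBP-1a and SREBP-1c transcripts.

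**Figure D4:**
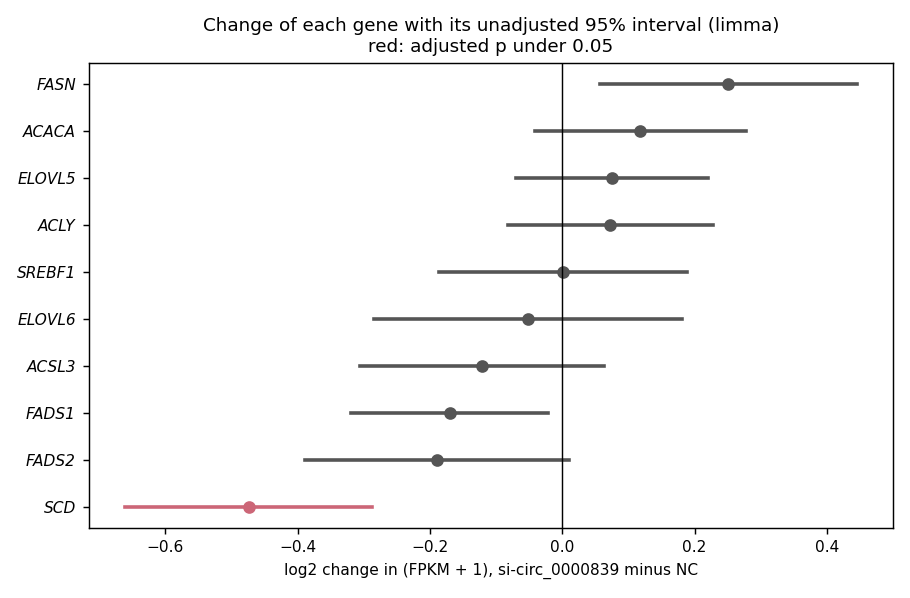
Log2 change in FPKM + 1 (horizontal axis, si-circ_0000839 minus NC) of the 10 genes with the unadjusted 95% interval of limma; red marks an adjusted p under 0.05. SCD at -0.47 is the only red point, FASN at 0.25 and FADS1 at -0.17 have intervals that leave out 0, and the other 7 intervals hold 0.

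The rest of lipid metabolism was described with 7 lists holding 131 genes, of which 103 were tested and 0 passed in limma, against 0.384% of all tested genes, while 12 had an unadjusted p under 0.05, 11.7% of them against 12.6% of all. With voom on recovered reads, which called 1.11% of all genes, DBI alone of the 103 passed. In 14 of the 103, or 13.6%, the groups did not overlap, 6 higher and 8 lower, against 18.1% of all tested genes (10.6% higher and 7.55% lower). The median log2 change over the 103 was -0.01, against 0.0057 over all tested genes. Of the 103, 45 were above 0 and 58 below, against 5529 and 5145 of all tested genes. Of the 18 genes that control SREBP and lipogenic transcription 14 were tested, with 5 above 0, 9 below and a median of -0.02. INSIG1, which retains SREBP precursors in the endoplasmic reticulum and is itself an SREBP target, was at 17.6, 15.5 and 16.2 FPKM in NC and at 14.6, 12.9 and 12.1 after si-circ_0000839 (limma adjusted p = 0.194). Every si-circ_0000839 library lay below every NC library. SCAP, the escort of SREBP, was at 18.0 ± 1.34 against 20.2 ± 1.49 after si-circ_0000839 (SD, n = 3; limma adjusted p = 0.461), and SREBF2, which encodes SREBP-2, at 22.2 ± 1.56 against 22.5 ± 2.29 (limma adjusted p = 0.954). Both overlapped between the groups, and the SREBF2 log2 change of 0.02 turned to -0.05 without si-circ_0000839 replicate 1, to -0.02 without NC replicate 3 and to -0.04 once GC and length trends were removed.

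Of the 13 cholesterol genes driven by SREBP-2, 12 were tested, 3 above 0 and 9 below, with a median log2 change of -0.07. IDI1, which isomerizes isopentenyl diphosphate, had the smallest p and was at 5.90, 5.60 and 6.50 FPKM in NC and at 4.72, 4.69 and 5.15 after si-circ_0000839 (limma adjusted p = 0.228). IDI1, FDFT1 and FDPS, named with their values known, lay lower in all si-circ_0000839 libraries than in all NC libraries. These are 25% of the 12, against 7.55% of all tested genes, and none of the 12 passed. Over all tested genes 5529 log2 changes were above 0 and 5145 below. The 9 genes that supply carbon and NADPH were all tested, with 2 above 0 and 7 below and a median of -0.04. SLC25A1, the mitochondrial citrate carrier, had the smallest p there, at 65.3 ± 7.80 FPKM in NC against 55.4 ± 6.61 after si-circ_0000839 (SD, n = 3; limma adjusted p = 0.388), with groups that overlapped.

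Among 24 other synthesis, elongation and desaturation enzymes 19 were tested, 11 above 0 and 8 below, with a median log2 change of 0.02. HSD17B8, a subunit of the mitochondrial ketoacyl reductase, had the smallest p, at 2.12 ± 0.367 FPKM in NC against 2.64 ± 0.223 after si-circ_0000839 (SD, n = 3; limma adjusted p = 0.388). Its groups overlapped. In 1 of the 19, or 5.26%, against 18.1% of all tested genes, the groups did not overlap. That gene, CBR4, named with its values known, went the other way at a low level, at 1.14 FPKM in NC against 0.913 (limma adjusted p = 0.518). Of 15 genes of fatty acid uptake, binding and activation 7 were tested, 4 above 0 and 3 below, with a median of 0.08. DBI, the acyl-CoA binding protein, was at 48.5, 56.0 and 49.5 FPKM in NC and at 39.8, 41.5 and 41.9 after si-circ_0000839, with no overlap. Its log2 change was -0.31 (SE 0.07, limma adjusted p = 0.116), and it passed after quantile normalization (adjusted p = 0.0460) and with voom on recovered reads (adjusted p = 0.0428).

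Of 28 genes of glycerolipid synthesis and lipid droplets 23 were tested, 13 above 0 and 10 below, with a median log2 change of 0.01. AGPAT2, which makes phosphatidic acid, had the smallest p, at 68.9 ± 7.41 FPKM in NC against 59.0 ± 5.19 after si-circ_0000839 (SD, n = 3; limma adjusted p = 0.366), with groups that overlapped. Of 24 genes of fatty acid oxidation 19 were tested, 7 above 0 and 12 below, with a median of -0.03. PPARA, a nuclear receptor that drives oxidation genes, was at 2.12, 1.70 and 2.14 FPKM in NC and at 1.44, 1.46 and 1.60 after si-circ_0000839 (limma adjusted p = 0.289). NC replicate 2 lay near the highest si-circ_0000839 library, and the groups did not overlap.

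**Figure D5:**
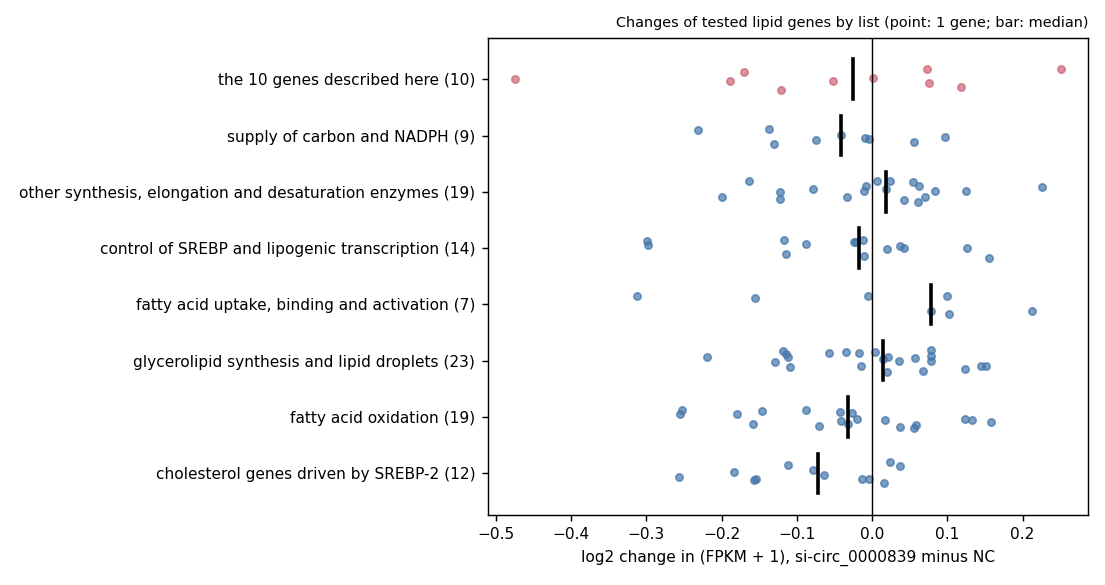
Log2 change in FPKM + 1 (horizontal axis, si-circ_0000839 minus NC) of each tested gene of the 10 described and of the 7 lists, with the number tested in brackets and the median as a bar; height within a list has no meaning. Medians lie between -0.07 and 0.08, and SCD at -0.47 is farther from 0 than any other gene shown.

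The 5 protein-coding genes whose log2(FPKM + 1) followed that of SCD most closely over the 6 libraries, outside the 10, were IGFBP3, SLC37A2, E2F2, CCNE1 and TMEM200B, with Pearson's r of 0.98 to 0.99. Each lay lower in all si-circ_0000839 libraries than in all NC libraries, so the difference between the groups enters this measure. Of these genes only IGFBP3 and SLC37A2 passed. IGFBP3 fell from 64.0 ± 2.29 to 45.9 ± 5.13 FPKM (SD, n = 3; log2 change -0.48, limma adjusted p = 0.0456). Its call was lost when si-circ_0000839 replicate 2 (adjusted p = 0.132) or 3 (0.172) or NC replicate 1 (0.127), 2 (0.0793) or 3 (0.113) was left out. SLC37A2, a sugar-phosphate transporter, fell from 8.93 ± 0.600 to 5.85 ± 0.808 FPKM (SD, n = 3; log2 change -0.54, limma adjusted p = 0.0426), a call lost when si-circ_0000839 replicate 2 (adjusted p = 0.103) or 3 (0.140) or NC replicate 1 (0.0989), 2 (0.0863) or 3 (0.0917) was left out. CCNE1, cyclin E1, was at 5.37 ± 0.0440 in NC and 4.38 ± 0.414 after si-circ_0000839 (adjusted p = 0.244), and E2F2, a cell cycle transcription factor, at 2.54 ± 0.129 and 1.86 ± 0.214 (adjusted p = 0.190).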

How the data were processed

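The authors deposited 1 table of FPKM, per the file headers, with gene lengths, coordinates and biotypes. The submitters' processing notes list HISAT2 2.0.5 and featureCounts 1.5.0-p3, with no strand setting, genome build or scaling. All 58735 gene IDs had the coordinates of GENCODE release 29, so positions are given as GRCh38. Multiplying FPKM by length gave whole multiples of 1 step per library (100% of values above 0, within 0.01), and so the reads per gene.

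Because FPKM are not counts, the test was limma 3.58.1 (R 4.3.3) with a trended prior on log2(FPKM + 1) where the mean reached 1 FPKM, group as the only term, two-sided, with Benjamini-Hochberg adjustment over all tested genes and a threshold of 0.05. Folds are ratios of mean FPKM. Ratios within a library were compared with scipy 1.17.1. The test was also tried on simulated reads, with the same spread setting for every gene and no library that stood apart. No result here rests on that trial. No 2 libraries were identical. The 10 genes, the lists and the tests were chosen with earlier results of these data known. Named genes are the 10, the called or else lowest-p gene of each list, 6 paralogs and SREBP regulators, and the 5 genes most like SCD. Alternatives were other pseudocounts, filters and scalings, a replicate block, a constant prior, voom on recovered reads, removal of GC and length trends (splines of 5 degrees of freedom) and libraries left out.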

Additional observations from a re-analysis of the deposited data

How the results depend on the processing

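SCD kept its direction in all 18 alternative settings and passed in 9 of them. No member of the 10 passed after no filter on low values, rescaling to TPM, a constant prior variance or the replicate block (0 members each), and leaving out 1 library gave 0 to 1. SCD then had an adjusted p of 0.310, 0.0589, 0.0647 and 0.0879 in turn. With no filter 26557 genes were tested. The cause of each of these losses was not tested. The labels do not say whether same-numbered libraries were paired. Same-numbered deviations correlated at -0.149, -0.289 and 0.15, and differently numbered ones at -0.305 to 0.353. So few libraries cannot decide whether a pairing existed. The block called 35 genes against 41.

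Over all genes the 41 calls became 4 with no filter (1 higher, 3 lower), 68 at a minimum of 5 FPKM (33 higher), 63 after quantile normalization (29 higher), 118 with voom (50 higher, 68 lower), 220 with GC and length trends removed (111 higher, 109 lower) and 20 without both libraries that stood apart (9 higher, 11 lower). Rescaling to TPM gave 32 higher calls. Leaving out 1 library gave 20 to 37 calls, 5 to 18 higher and 15 to 19 lower. Listed lipid genes called rose from 0 to 1, DBI, after quantile normalization and with voom, and stayed at 0 with any 1 library left out.

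Uncalled values near 0 turned sign. SREBF1 was at -0.0065 after quantile normalization, -0.012 after median-ratio scaling, -0.0062 with voom, -0.055 with GC and length trends removed, -0.052 without both libraries that stood apart and -0.083 to 0.058 with 1 library left out. ELOVL6 was at 0.011 without both libraries and -0.12 to 0.039 with 1 left out, FADS3 at -0.033 without GC and length trends, -0.015 without both libraries and -0.055 to 0.059, SREBF2 at -0.039 without those trends and -0.053 to 0.086, and SCD5 at -0.047 to 0.16. The log2 difference of the FADS1 to FADS2 ratio was -0.011 after quantile normalization and -0.040 to 0.12 with 1 library left out; those of SCD to FASN and SCD to ACACA stayed below 0 in every setting run. The count tests listed among the alternatives were not run, since the deposited unit is FPKM.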
